A study of Mus musculus with 4 samples.

Results

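Mitochondria fuse and divide continually, and damaged ones are delivered to lysosomes by mitophagy. Fusion of the outer membrane is carried out by the mitofusins and that of the inner membrane by OPA1, while division needs the dynamin-related GTPase DRP1 and the outer membrane adaptors that recruit it. Mitophagy is started either through ubiquitin, downstream of the kinase PINK1, or by outer membrane receptors such as BNIP3 and NIX that bind LC3 directly. In the mouse heart this machinery takes part in the postnatal remodelling of cardiomyocyte (CM) mitochondria. The 10 genes described here were taken by name, for their known roles, from a table of 24454 genes. Earlier results of these data were known when the genes were chosen. The genes are *Mfn1*, *Mfn2* and *Opa1* for fusion, *Dnm1l*, *Fis1* and *Mff* for fission, and *Pink1*, *Bnip3* and *Bnip3l* for mitophagy. *Oma1* was grouped with the fusion genes because its product cleaves OPA1, and not because it carries out fusion. All 10 were found in the table and all 10 were abundant enough to test. On GRCm38 they lie on chromosomes 3 (*Mfn1*), 4 (*Mfn2*, *Oma1* and *Pink1*), 16 (*Opa1* and *Dnm1l*), 5 (*Fis1*), 1 (*Mff*), 7 (*Bnip3*) and 14 (*Bnip3l*).

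Reads were counted in hearts at postnatal day 7 from control (Ctrl) and miR-128OE mice, with 2 libraries each. Where the study defines its overexpression model, for other experiments, the Ctrl mice are miR-128TetRE animals, which carry a *miR-128* gene behind a tetO promoter in the Rosa26 locus. The miR-128OE mice carry the same allele plus *α-MHC*-tTA, a transactivator driven in CMs that is active without doxycycline, so that effects of the transactivator itself and of the *miR-128* it induces cannot be told apart. Mice were kept on a C57BL/6 background, and the labels do not say whether a library came from 1 heart or from a pool. The p-values therefore measure the spread between these libraries, which may be technical.

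Library totals ranged from 8096870 counts in the Ctrl library WH8 to 14359838 in the miR-128OE library WH10. *Xist*, transcribed from the inactive X chromosome, had at least 11339 counts in each Ctrl library and at most 132 in each miR-128OE library, whereas the Y-linked gene *Ddx3y* had at most 13 counts in Ctrl and at least 1442 in miR-128OE libraries. Sex and genotype therefore coincide in these 4 libraries, and they cannot be told apart for any value given here. The hairpin genes of the miRNA were barely counted, with 0 counts of *Mir128-1* in each library and 0, 0, 2 and 10 counts of *Mir128-2* in WH7, WH8, WH9 and WH10. These counts do not check the level of the mature miRNA.

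The sequences that bear on a miRNA transgene come first. The mature strand of the overexpressed miRNA is shown with its seed (bases 2 to 8) in capitals, as in RefSeq for GRCm38.p6. It is followed by the matches to that seed in the 3′UTRs of the 10 genes, with the matched bases in capitals. These are the longest annotated 3′UTRs of GENCODE M21 on GRCm38, the same assembly as mm10, to which the authors aligned their reads. The adjoining pair in *Opa1* is shown in 1 window.
mmu-miR-128-3p: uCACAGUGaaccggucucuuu
*Mfn2*, chr4:147875134-147875162, minus strand: cggttgaaagtCACTGTGcatttgataaa
*Opa1*, chr16:29654447-29654475, plus strand: atgtcgtCACTGTGCACTGTGAatggact

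The *Mfn2* match is a 7mer-m8 (CACTGTG) that starts at base 238 of a 3′UTR of 1790 bases. In *Opa1* a 7mer-m8 at base 2711 is followed directly by an 8mer (CACTGTGA) at base 2718 of 3141. The other 8 genes held no 8mer, 7mer-m8 or 7mer-A1 (ACTGTGA) match in any annotated 3′UTR. A match was therefore present in 2 of 10 genes, and in 33.2% of the 13465 tested genes with a 3′UTR. Both genes with a match were at a higher level in each miR-128OE library than in either Ctrl library. The log2 fold change (log2FC, miR-128OE over Ctrl) was 0.30 for *Mfn2* and 0.21 for *Opa1*, and that of *Opa1* did not pass the threshold. Among all tested genes with a match, 15.2% were called higher and 16.5% lower in miR-128OE hearts.

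For each gene the conditions were compared in edgeR by quasi-likelihood, and p-values were adjusted by Benjamini-Hochberg over 14266 genes, with a threshold of 0.05. Of the 10 genes, *Bnip3* and *Mfn2* were higher in miR-128OE hearts, 0 were lower and 8 did not pass the threshold. Over all tested genes 16.5% were called higher and 15% lower, so the share of 2 in 10 called higher is near the background. Scaled by total counts, 1611 genes were called higher and 2948 lower, against 2347 and 2143 with TMM. The median log2FC of the 10 was 0.13, against -0.01 for all tested genes. In 7 of 10 genes both miR-128OE libraries lay above both Ctrl libraries, a pattern shown by 33.7% of all tested genes. In 1 gene, *Dnm1l*, both lay below, as for 34.4% of all tested genes. The plot of log2FCs sets the genes beside the distribution for all genes.

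**Figure D1:**
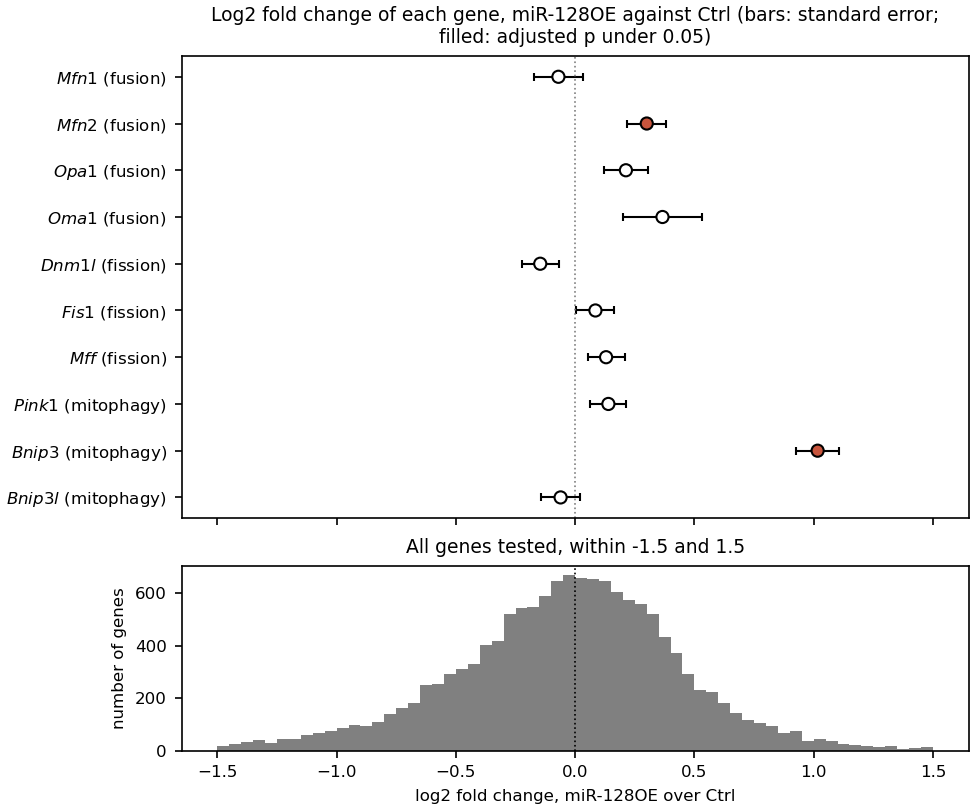
Log2 fold change of each of the 10 genes in miR-128OE against Ctrl hearts, with its standard error (SE; top; filled points passed an adjusted p of 0.05 in edgeR's quasi-likelihood test), and the number of all tested genes at each log2FC (bottom). *Bnip3* stands at 1.02, *Mfn2* at 0.30, and the other 8 genes lie between -0.15 and 0.37.

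*Bnip3*, which encodes a mitophagy receptor of the outer membrane with a BH3-like domain, showed the largest difference of the 10. It (Entrez Gene 12176, chromosome 7 of GRCm38 from 138890836 to 138909519) had raw counts of 538 (WH7) and 390 (WH8) in Ctrl and of 1063 (WH9) and 1249 (WH10) in miR-128OE hearts. Normalized counts, scaled by TMM factors to the mean effective library size, were 492 and 551 in Ctrl and 1052 and 1051 in miR-128OE hearts. The miR-128OE libraries were almost equal and both lay far above the Ctrl pair. The mean of the Ctrl pair was 522 ± 41.9 (SD, n = 2) and rose to 1051 ± 1.38 (SD, n = 2) in the miR-128OE pair (log2FC 1.02, SE 0.09, adjusted p = 0.000107). This is a 2.02-fold difference, with a 95% interval from 1.76 to 2.33, and by p-value it ranked 118 of 14266. Over the 4 fits without 1 library the log2FC stayed between 0.93 and 1.10, and it passed the threshold under all 13 alternative settings.

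Counts of *Bnip3* have an uncertain part. Its longest transcript is at least 90% identical over 200 or more bases to annotated transcripts of 6 other genes, most of them pseudogenes, and 504 bases of its exons lie opposite the antisense gene *Gm45507*. The handling of strand and of reads that fit several genes is not given in the sources used here.

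*Bnip3l*, the closest relative of *Bnip3*, showed no such difference. It encodes NIX, the receptor known for clearing mitochondria from maturing red cells. It had 1981 and 1343 counts in WH7 and WH8 and 1882 and 2012 in WH9 and WH10, or 1812 and 1898 normalized counts in Ctrl and 1863 and 1692 in miR-128OE hearts. The conditions overlapped. It had a log2FC of -0.06 (SE 0.08, adjusted p = 0.608), and the 95% interval of the fold reached from 0.843 to 1.09. A near-identical transcribed pseudogene, *Bnip3l-ps*, makes these counts uncertain too.

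The ratio of the raw counts of both receptors within a library needs no scaling between libraries. *Bnip3* stood at 0.272 and 0.290 of *Bnip3l* in the Ctrl libraries and at 0.565 and 0.621 in the miR-128OE libraries. The mean ratio was 0.281 ± 0.013 (SD, n = 2) for Ctrl, against 0.593 ± 0.040 (SD, n = 2) for miR-128OE hearts, 2.11 times as high. No test was made of these ratios. An exact permutation test cannot reach 0.05 with 2 libraries against 2.

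*Pink1* encodes the kinase that accumulates on depolarized mitochondria and phosphorylates ubiquitin there. It had 2333 and 2267 normalized counts in Ctrl and 2549 and 2518 in miR-128OE libraries. Replicates were close and the conditions did not overlap, yet the difference was small. It had a log2FC of 0.14 (SE 0.08, adjusted p = 0.189), with a 95% interval of the fold from 0.979 to 1.24.

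**Figure D2:**
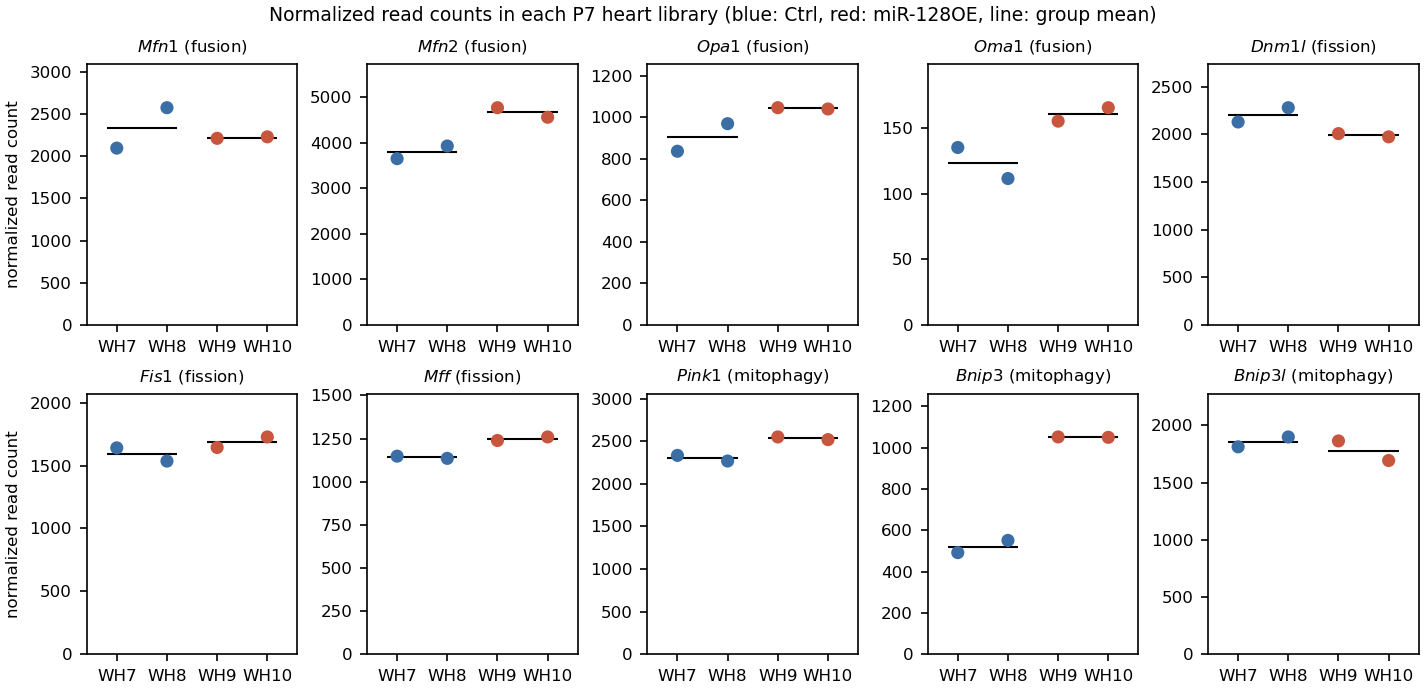
Normalized read counts (vertical axes, each from 0) of the 10 genes in each library, with Ctrl libraries in blue, miR-128OE libraries in red and the mean of each pair as a line. *Bnip3* has 492 and 551 in Ctrl against 1052 and 1051 in miR-128OE libraries, while *Mfn1* and *Bnip3l* overlap between the conditions.

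*Bnip3* is known as a target of the hypoxia-inducible factors, which bind the core letters ACGTG or GCGTG. Its promoter is shown because it held the most of these letters among the 9 genes whose promoters were read. The 250 bases before its start site (RefSeq, GRCm38.p6) are printed with each match on either strand in capitals.
*Bnip3*, chr7:138909507-138909756, minus strand: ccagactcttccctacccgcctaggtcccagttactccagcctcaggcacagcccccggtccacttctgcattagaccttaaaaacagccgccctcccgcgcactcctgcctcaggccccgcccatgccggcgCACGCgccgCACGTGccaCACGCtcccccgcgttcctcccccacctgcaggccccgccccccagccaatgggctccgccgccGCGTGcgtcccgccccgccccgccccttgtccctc

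The 5 matches start 117, 108, 107, 99 and 35 bases before the start site, and the matches at 108 and 107 overlap as both strands of CACGTG. Of 32536 different promoter sequences of this length, 38.8% held at least 1 match and 1.02% held 5 or more. Promoter sequences were at hand for 9 of the 10 genes, and 4 of these, *Bnip3*, *Pink1*, *Mfn2* and *Dnm1l*, held a match in at least 1 promoter. A match is a description of the letters, not a binding site.

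A list of 16 genes of the hypoxia response was read from the same fit. In miR-128OE hearts 8 of 16 rose and 0 fell, and the median log2FC was 0.34, against the background of 16.5% called higher. By smallest p-value the first were *Egln3*, an oxygen-sensing prolyl hydroxylase, *Ldha*, the lactate dehydrogenase subunit, and *Ddit4*, an inhibitor of mTORC1. *Egln3* had 249 and 168 reads in Ctrl against 498 and 562 in miR-128OE libraries (log2FC 1.06, SE 0.11, adjusted p = 0.000216). The log2FC of *Ldha* was 0.77 and that of *Ddit4* was 1.10. In contrast, *Vegfa*, a target of the same factors that was named after its value was seen, overlapped between the conditions (log2FC -0.01, adjusted p = 0.971). The list was chosen with earlier results of these data known. A part of hypoxia-inducible factors in the difference of *Bnip3* was not tested.

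The fusion genes include both mitofusins. *Mfn2* encodes the mitofusin that also tethers mitochondria to the sarcoplasmic reticulum. It (Entrez Gene 170731, chromosome 4 from 147873599 to 147904704) had 3988 and 2777 counts in WH7 and WH8 and 4813 and 5416 in WH9 and WH10, or 3647 and 3925 normalized counts in Ctrl and 4765 and 4555 in miR-128OE hearts. Both miR-128OE libraries were above both Ctrl libraries. The mean of the Ctrl pair was 3786 ± 197 (SD, n = 2) and rose to 4660 ± 148 (SD, n = 2) in the miR-128OE pair (log2FC 0.30, SE 0.08, adjusted p = 0.0221). The fold was 1.23, with a 95% interval from 1.08 to 1.40. The call was lost when total counts replaced TMM (adjusted p = 0.0777), without WH9 (0.193) and without WH10 (0.0962).

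*Mfn1* encodes the other mitofusin. It had 2096 and 2575 normalized counts in Ctrl and 2212 and 2230 in miR-128OE libraries. Both miR-128OE values lay between the Ctrl values. It had a log2FC of -0.07 (SE 0.10, adjusted p = 0.630), with a 95% interval of the fold from 0.814 to 1.12, and without WH8 it turned to 0.09. Within a library, *Mfn2* had 1.74 and 1.52 times the raw counts of *Mfn1* in Ctrl and 2.15 and 2.04 times in miR-128OE hearts. The mean of this ratio was 1.63 ± 0.153 (SD, n = 2) for Ctrl, against 2.10 ± 0.079 (SD, n = 2) for miR-128OE hearts, with no overlap and no test.

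*Opa1* encodes the GTPase of the inner membrane that fuses it and holds cristae together. It had 837 and 970 normalized counts in Ctrl and 1047 and 1040 in miR-128OE libraries. The conditions did not overlap, but the Ctrl libraries were far apart. The log2FC of 0.21 did not pass the threshold (SE 0.09, adjusted p = 0.109), and the 95% interval of the fold reached from 1.003 to 1.34. Without WH8 the log2FC was 0.32 and passed (adjusted p = 0.0119), and without WH7 it was 0.11. *Oma1* encodes the stress-activated protease that cleaves OPA1, and it was the least abundant of the 10. It had 148 and 79 counts in WH7 and WH8 and 157 and 197 in WH9 and WH10, or 135 and 112 normalized counts in Ctrl and 155 and 166 in miR-128OE hearts. Its log2FC of 0.37 had the largest SE of the 10, 0.17, and did not pass (adjusted p = 0.122), with a 95% interval of the fold from 0.995 to 1.67.

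Of the 3 fission genes, 0 passed the threshold with edgeR or DESeq2, and 0 had an unadjusted p under 0.05 in the edgeR test. *Dnm1l* encodes DRP1, the GTPase that constricts the organelle. It had 2130 and 2280 normalized counts in Ctrl and 2008 and 1974 in miR-128OE libraries. It was the only 1 of the 10 with both miR-128OE libraries below both Ctrl libraries. It had a log2FC of -0.15 (SE 0.08, adjusted p = 0.183), with a 95% interval of the fold from 0.800 to 1.02. With total counts in place of TMM it was -0.25 and passed (adjusted p = 0.0350), a scaling that also moved the median log2FC of all genes to -0.11. Its exons share 243 bases with the antisense gene *Gm49521*, and a pseudogene, *Gm13719*, is 91.2% identical to part of its transcript, so its counts are uncertain to that extent.

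*Mff* and *Fis1* encode outer membrane proteins that act with DRP1, and neither passed the threshold. *Mff*, which encodes its main outer membrane receptor, had 1148 and 1135 normalized counts in Ctrl and 1239 and 1259 in miR-128OE libraries. It had a log2FC of 0.13 (SE 0.08, adjusted p = 0.232), with a 95% interval of the fold from 0.970 to 1.23. *Fis1*, which encodes a tail-anchored adaptor, had 1642 and 1536 normalized counts in Ctrl and 1645 and 1728 in miR-128OE libraries, so that WH7 and WH9 nearly met. Its log2FC of 0.09 (SE 0.08, adjusted p = 0.446) turned to -0.01 with total counts and to -0.05 with an offset for GC content and length.

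Ratios within a library set some fusion genes against fission genes without any scaling. *Mfn2* had 1.71 and 1.72 times the raw counts of *Dnm1l* in the Ctrl libraries and 2.37 and 2.31 times in the miR-128OE libraries, and *Opa1* stood at 0.393 and 0.425 of *Dnm1l* against 0.521 and 0.527. These 2 ratios were 1.36 and 1.28 times as high in miR-128OE hearts. Both are taken over *Dnm1l*, the fission gene with both miR-128OE libraries below both Ctrl libraries. Ratios of *Mfn2* or *Opa1* to *Fis1* or *Mff*, and of *Mfn1* to any single fission gene, were not computed. *Mfn2* had the largest counts of the fusion genes summed next. The summed counts of *Mfn1*, *Mfn2* and *Opa1* over those of *Dnm1l*, *Fis1* and *Mff* gave 1.34 and 1.51 in Ctrl and 1.64 and 1.58 in miR-128OE hearts, again without overlap. The ratio of *Mff* to *Fis1* overlapped, with 0.699 and 0.739 in Ctrl and 0.753 and 0.728 in miR-128OE hearts. These ratios are of counts, not of levels per length, and they had no test.

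**Figure D3:**
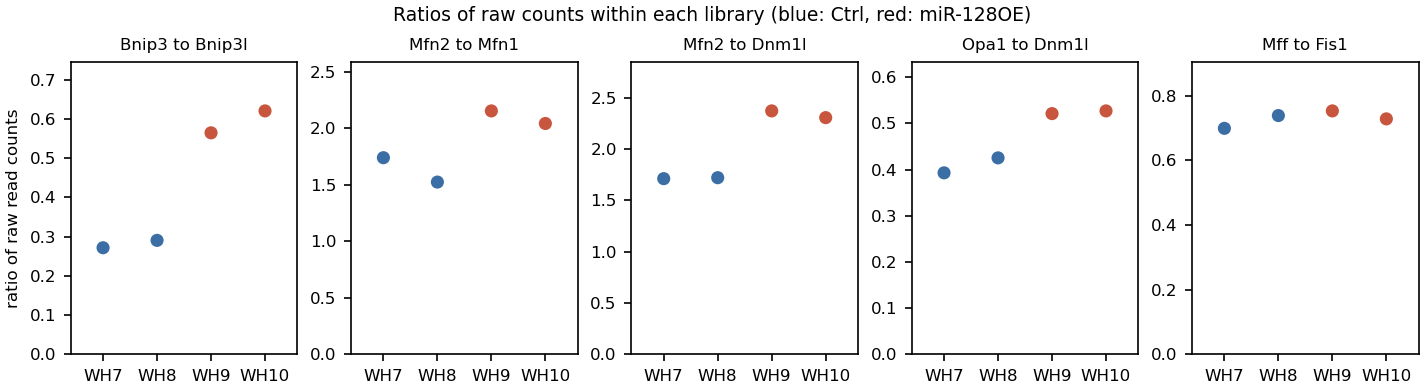
Ratio of the raw counts of gene pairs within each library (vertical axes, each from 0), with Ctrl in blue and miR-128OE in red. *Bnip3* to *Bnip3l* goes from 0.272 and 0.290 to 0.565 and 0.621 and *Mfn2* to *Dnm1l* from 1.71 and 1.72 to 2.37 and 2.31, while *Mff* to *Fis1* overlaps.

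Per kilobase of annotated exons, the level of the 10 genes in Ctrl hearts went from *Fis1* at 78.7 ± 3.69 CPM per kilobase (SD, n = 2) to *Oma1* at 4.89 ± 0.664 (SD, n = 2), a 16.1-fold range. *Pink1* (73.1), *Mfn2* (61.9), *Bnip3l* (40.8), *Dnm1l* (36.0), *Mfn1* (32.4), *Bnip3* (19.6), *Mff* (9.94) and *Opa1* (9.74) lay between them in this order. Of neighbours in the order, *Dnm1l* and *Mfn1*, and *Mff* and *Opa1*, had overlapping Ctrl libraries. In miR-128OE hearts *Bnip3* moved from place 7 to place 4, at 39.4 ± 0.052 CPM per kilobase (SD, n = 2). There it lay between the libraries of its relative *Bnip3l*, at 41.0 and 37.2. With the longest transcript as the length the Ctrl order of means was the same, but the range was 26.0-fold, and *Bnip3* in miR-128OE hearts (50.9 and 50.8) lay above both *Bnip3l* libraries (48.6 and 44.1). With that length the Ctrl libraries of *Bnip3* (23.8 and 26.7) and *Mff* (24.9 and 24.6) overlapped, as did those of *Bnip3l* and *Dnm1l*. *Mff* then no longer overlapped with *Opa1* (11.4 and 13.2).

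The other genes of the pathway came from a list of 56, chosen with earlier results of these data known, of which 55 were tested. In miR-128OE hearts 20 were higher, 2 were lower and 33 did not pass, with a median log2FC of 0.17, against 16.5% higher and 15% lower over all tested genes, a background that also stands beside the counts of each group of partners below. In 37 both miR-128OE libraries lay above both Ctrl libraries, against 33.7% of all tested genes. Among 17 partners of fusion, which include proteases of the inner membrane, prohibitins and cristae proteins, 7 were higher and 1 was lower (median 0.26). The list was not sorted by whether a product promotes or limits fusion. By p-value the first were *Phb2* (log2FC 0.39), a prohibitin that also serves as a mitophagy receptor of the inner membrane, *Slc25a46* (0.52), an outer membrane protein that acts in mitochondrial dynamics, and *Chchd3* (0.35), a cristae organizer. *Miga2*, which encodes mitoguardin 2, was the lower one (log2FC -0.30, adjusted p = 0.0190). Its call was lost with DESeq2 (adjusted p = 0.0674), without WH9 and without WH10.

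Of the partners, 5 were called higher without WH9 and 8 without WH10, against 20 with all libraries. Calls of *Phb2*, *Inf2*, *Pgam5*, *Trak2* and *Bcl2l13* were lost without either, those of *Slc25a46* (adjusted p = 0.0770), *Chchd3* (0.149) and *Ambra1* (0.0579) without WH9, that of *Pgam5* also without WH7 (0.0632), and that of *Bcl2l13* also without WH8 (0.0513).

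Of 11 tested partners of fission, 4 were higher and 0 were lower (median 0.20). They were led by *Mtfr1l* (log2FC 0.78), a regulator of mitochondrial shape, *Inf2* (0.40), the formin that assembles actin at division sites, and *Pgam5* (0.52), a mitochondrial phosphatase. *Mtfr1l* had 1105 and 811 reads in Ctrl against 1880 and 2185 in miR-128OE libraries (SE 0.09, adjusted p = 0.000293). The DRP1 receptors *Mief1* (log2FC 0.20) and *Mief2* (0.08) did not pass, with adjusted p-values of 0.206 and 0.582.

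Of 22 partners of mitophagy, 8 were higher and 1 was lower (median 0.17). *Map1lc3a*, an LC3 gene, had 3999 and 2471 reads in Ctrl against 7368 and 8511 in miR-128OE libraries. It rose to much the same degree as *Bnip3*, with a log2FC of 1.02 (SE 0.08, adjusted p = 6.85e-05). *Pmpcb* (0.82), the catalytic subunit of the protease that trims imported precursors, PINK1 among them, and the cargo receptor *Sqstm1* (0.48) came next. *Ambra1*, which encodes a scaffold of autophagy initiation, fell by 0.56 on the log2 scale (SE 0.10, adjusted p = 0.00339).

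Other receptors of mitophagy differed less. *Bcl2l13* had a log2FC of 0.29 (adjusted p = 0.0356) and passed under 6 of 13 alternative settings. *Fundc1* (0.22) and *Fkbp8* (0.17) did not pass, with adjusted p-values of 0.205 and 0.117. Of 5 genes of mitochondrial transport, *Trak2*, a kinesin adaptor, was higher (log2FC 0.39, adjusted p = 0.00691), and 4 did not pass.

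**Figure D4:**
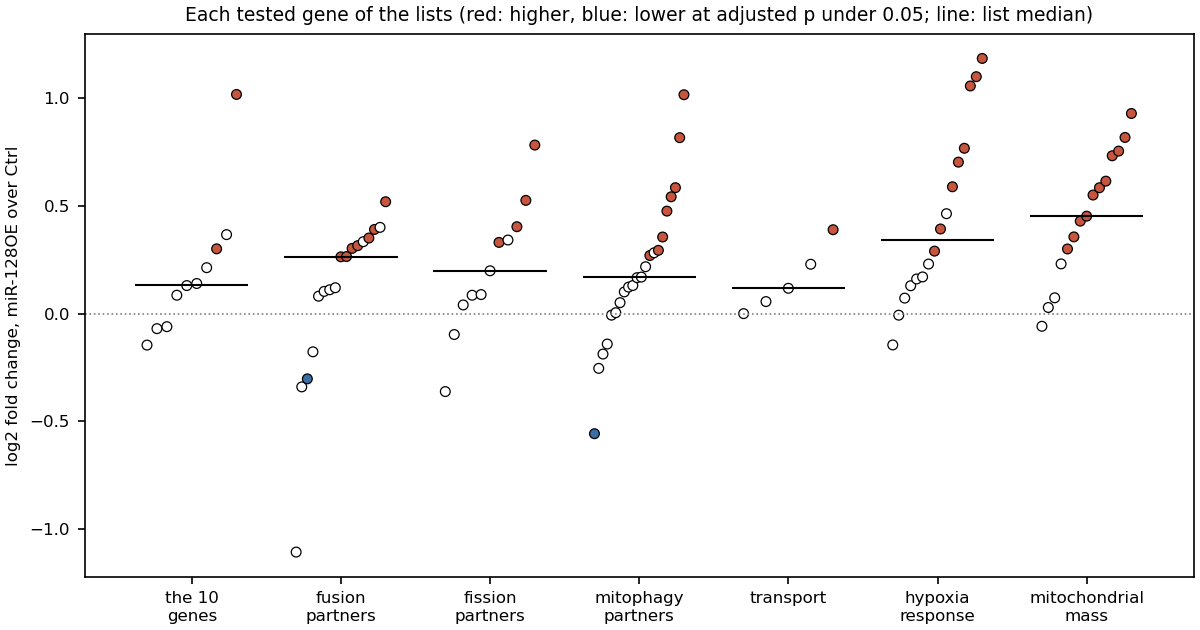
Log2 fold change (vertical axis) of each tested gene of the 10, of 4 lists of pathway partners, and of the hypoxia response and mitochondrial mass lists, with genes called higher in red, lower in blue and the median of each list as a line. The medians are 0.13 for the 10 genes, 0.34 for the hypoxia response and 0.45 for mitochondrial mass.

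Markers of mitochondrial mass and of CMs were read from the same fit. Of 15 genes whose products are abundant in or typical of mitochondria, 11 rose and 0 fell, against 16.5% and 15% of all tested genes, and the median log2FC was 0.45. Their summed level was 6046 and 6449 CPM in Ctrl and 10017 and 9189 in miR-128OE libraries, with *Atp5b* the largest gene. Of the 15, *Hspa9* (log2FC 0.23), *Hspd1* (0.07), *Tfam* (0.03) and *Timm44* (-0.06) did not pass. The amount of mitochondria was not measured, and the list was chosen with earlier results of these data known. Relative to the geometric mean of these 15 genes within each library, *Bnip3* was 1.48 times as high in miR-128OE as in Ctrl hearts. *Oma1* overlapped, and the other 8 of the 10 genes were lower in both miR-128OE libraries than in either Ctrl library. These ratios were 0.900 times the Ctrl mean for *Mfn2*, 0.846 for *Opa1*, 0.661 for *Dnm1l* and 0.700 for *Bnip3l*. The list itself rose, and a gene that rose less than the list falls in this ratio. A log2FC of 0.45, the list's median, was at or above that of 86.7% of all tested genes. The share of all tested genes with such a fall was not counted.

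All 10 CM markers passed the filter, from *Myh6* at the highest level, and their summed level was 51538 and 56493 CPM in Ctrl and 64523 and 63688 in miR-128OE libraries. Of these, 4 were higher, 2 were lower and 4 did not pass, against 16.5% called higher and 15% lower over all tested genes. In bulk tissue, fewer cells of a type and less RNA per cell cannot be told apart. Relative to the geometric mean of the CM markers within each library, *Bnip3* was 1.71 times as high in miR-128OE hearts, without overlap. *Mfn2* was 1.04 times as high, with ratios of 0.0892 and 0.0846 in Ctrl against 0.0915 and 0.0897 in miR-128OE libraries, so WH7 and WH10 nearly met. *Opa1* overlapped at 0.981 times. The share of all tested genes without overlap in this ratio was not counted. *Dnm1l* stood at 0.765, *Bnip3l* at 0.811 and *Mfn1* at 0.809 of the Ctrl mean, with both miR-128OE libraries below both Ctrl libraries. The median log2FC of the CM markers was 0.23, so genes that rose less tend to fall in these ratios.

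Markers of other cell types gave the following counts, each to be read beside the background of 16.5% called higher and 15% lower. Of the marker lists, 1 of 10 fibroblast genes was higher and 0 lower, 3 of 10 endothelial genes were higher and 2 lower, 3 of 9 mural genes were higher and 1 lower, and 0 of 10 macrophage genes passed in either direction in the edgeR test, with 2 at an unadjusted p under 0.05. The summed levels were 6906 to 10620 CPM in Ctrl and 9458 to 10179 in miR-128OE libraries for fibroblasts, 2331 to 2366 and 2405 to 2493 for endothelium, 1978 to 2086 and 2532 to 2857 for mural cells, and 118 to 156 and 125 to 125 for macrophages. The largest gene of the mural sum was *Acta2*, called higher with a log2FC of 0.94, while *Myh11* was the 1 called lower, at -0.64. Of 6 tested brown fat genes, 3 were higher and 0 lower, with a sum of 49.5 to 51.8 CPM in Ctrl and 74.9 to 94.5 in miR-128OE libraries. The largest gene of this sum was *Cidea*, with a log2FC of 0.51. *Ucp1*, which defines brown fat, had 56 and 3 reads in Ctrl against 253 and 189 in miR-128OE libraries. The listed brown fat genes *Zic1* and *Elovl3* were too low to test. Normalized counts of *Zic1* were 10.1 and 7.07 in Ctrl against 4.95 and 1.68 in miR-128OE libraries, and *Elovl3* had 1 read in each library. For erythroid genes, 1 of 5 tested was higher and 1 lower, with a sum of 40.7 to 53.0 and 76.2 to 82.6 CPM. The higher one was *Alas2*, the largest gene of this sum (log2FC 1.05), and the lower one was *Ermap* (-1.04). *Hba-a1*, *Hba-a2*, *Hbb-bs* and *Hbb-bt* were listed at 0 in each library. The part of these cell types in the differences of *Bnip3* and *Mfn2* was not tested.

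**Figure D5:**
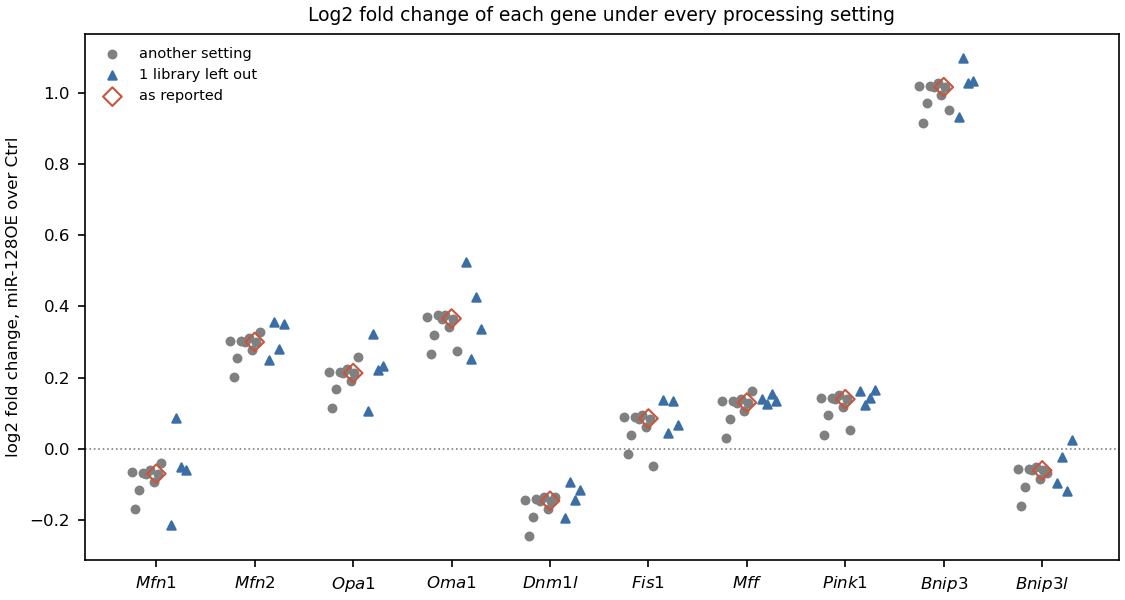
Log2 fold change of each of the 10 genes (vertical axis) as reported (diamonds), under other processing settings (grey points) and with 1 library left out (triangles). *Bnip3* stays between 0.92 and 1.10 and *Mfn2* between 0.20 and 0.36, while *Mfn1*, *Fis1* and *Bnip3l* cross 0.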

How the data were processed

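Reads were filtered for quality by the authors, mapped with TopHat2 (genome mm10) and counted over known genes in Bioconductor. They deposited raw counts per Entrez gene and library. The gene models, strand setting and rule for reads that fit several genes are not given in the sources used here. Of 24454 identifiers, 24374 were matched to a symbol (RefSeq, GRCm38.p6). The 10 genes and all lists were chosen with earlier results of these data known.

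All 14266 genes that passed filterByExpr (minimum 10 counts, total 15) were tested with edgeR 4.0.16 in R 4.3.3, the package the study names. Its methods give no more than a negative binomial model, and the settings chosen here were TMM factors, the quasi-likelihood test and Benjamini-Hochberg adjustment. Standard errors were derived from the F statistic of each gene. A level of 3 counts, the detection floor, was at most 0.360 CPM, which covers counting error only. Levels per length used exons of GENCODE M21. Near-identical transcripts were found with blastn 2.17.0. The test was checked on simulated counts. In addition to the 10 genes, the text names up to 3 higher and 3 lower genes by p-value in each partner and the hypoxia list, and *Fundc1*, *Bcl2l13*, *Fkbp8*, *Mief1* and *Mief2*. A further gene that the rule names is not reported here. *Ucp1*, *Zic1*, *Elovl3*, *Cidea*, *Acta2*, *Myh11*, *Alas2*, *Ermap*, *Vegfa*, *Hspa9*, *Hspd1*, *Tfam*, *Timm44* and the hemoglobin genes were added to the text with their values known. Alternatives included other size factors, filters, tests (DESeq2 1.42.0) and thresholds, an offset for GC content and length, other 3′UTR, site and length definitions, and each library left out.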

Additional observations from a re-analysis of the deposited data

How the results depend on the processing

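Scaling by total counts instead of TMM left 1 of the 10 genes called higher and 1 lower, and 13 pathway partners called higher and 5 lower, with 1611 of all genes higher and 2948 lower. With DESeq2's test, 1410 of all genes and 1 partner were lower. At a threshold of 0.01, 1 of the 10 genes was higher, 10 partners were higher and 1 lower, and 1264 of all genes were higher and 1050 lower. Over the 4 leave-one-out fits, the 10 genes had 1 to 3 higher and 0 lower calls, the partners 5 to 20 higher and 0 to 5 lower, and all genes 897 to 2654 higher and 667 to 2384 lower, with the lowest counts without WH9. The log2 fold change of *Fis1* turned to -0.015 with total counts and -0.049 with the GC and length offset, and that of *Mief2* to -0.015 with total counts. Leaving out 1 library gave a range from -0.213 to 0.087 for *Mfn1*, positive without WH8, and from -0.118 to 0.024 for *Bnip3l*, positive without WH10. The cause was not tested. Where the lone library of a condition remained, it was assumed to vary like the other condition. The share of genes with a seed match was 36.5% in any annotated 3′UTR and 24.5% with 8mer and 7mer-m8 matches alone. The range of levels per length was 26.0-fold with the longest transcript. All other settings left each of the 10 genes in its direction and on its side of the threshold. The exceptions were the changes of sign above, the loss of the *Mfn2* call at a threshold of 0.01, and the changes named beside *Mfn2*, *Opa1* and *Dnm1l* in the report. Depth limited *Oma1* most, with 79 counts in WH8. No paired analysis was made because the labels do not link a Ctrl library to a miR-128OE library.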
